A study of Mus musculus with 24 samples.

Results

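The genes described here set the proximodistal axis of the limb bud: Meis1 and Meis2, which encode homeodomain transcription factors, Aldh1a2, which encodes the retinaldehyde dehydrogenase that makes retinoic acid, and Cyp26b1, which encodes a cytochrome P450 that breaks retinoic acid down. They were taken as 4 windows of the mouse genome build mm9, set by gene position and chosen with earlier results of these data known. The windows were chromosome 11 from 18700001 to 19100000 for Meis1 and chromosome 2 from 115400001 to 116000000 for Meis2. For Aldh1a2 the window was chromosome 9 from 71000001 to 71200000, and for Cyp26b1 chromosome 6 from 84450001 to 84650000. The windows held 164 of the 175212 peaks in the 10 peak lists analysed. All tissue came from C57BL/6J embryos, with no mutation, transgene or treatment named in the labels, and each library is chromatin of forelimb or hindlimb buds. At embryonic day 10.5 (E10.5) each limb had 2 libraries for acetylation of histone H3 lysine 27 (H3K27ac, a mark of active promoters and enhancers) and 2 for its trimethylation (H3K27me3, laid down by Polycomb complexes). At E11.5 each limb had 1 H3K27ac library, made with another antibody lot, so stage and lot cannot be told apart. The stage text in the E11.5 labels is not uniform, since 1 general protocol line names day 10.5, and the titles and stage labels were followed. H3K27ac libraries were sequenced paired-end and H3K27me3 libraries single-end, so the marks are compared by position and not by amount.

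In the limb bud, retinoic acid made by Aldh1a2 in the trunk and flank mesoderm reaches the proximal bud, where Meis1 and Meis2 are expressed and mark the future upper limb segment. Signals from the apical ridge keep Cyp26b1 on in the distal mesenchyme, where its enzyme clears retinoic acid and Meis expression is off. Each bud therefore mixes cells in which a given gene is on with cells in which it is off, and a peak list cannot separate fewer cells carrying a mark from less of the mark per cell.

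The sequences just upstream of the gene starts are shown because most H3K27ac of Meis1, Meis2 and Cyp26b1 at E10.5, and all H3K27me3 of Aldh1a2 and Cyp26b1, lay on the promoter side, and because the Aldh1a2 promoter differs in base composition from those of the other members. They are the 250 bases before the annotated start, 5′ to 3′ on the gene's own strand, from RefSeq on GRCm38.p6, a later build than the peaks' mm9. All 4 genes were found there by symbol. Capitals mark CG dinucleotides.
Meis1 upstream, chr11:19018970-19019219, minus strand: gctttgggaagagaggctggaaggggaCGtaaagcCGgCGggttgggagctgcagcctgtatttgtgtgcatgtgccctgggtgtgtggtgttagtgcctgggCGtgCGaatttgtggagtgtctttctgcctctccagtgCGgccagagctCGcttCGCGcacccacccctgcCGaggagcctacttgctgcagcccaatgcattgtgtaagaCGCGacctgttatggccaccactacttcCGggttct
Meis2 upstream, chr2:116064620-116064869, minus strand: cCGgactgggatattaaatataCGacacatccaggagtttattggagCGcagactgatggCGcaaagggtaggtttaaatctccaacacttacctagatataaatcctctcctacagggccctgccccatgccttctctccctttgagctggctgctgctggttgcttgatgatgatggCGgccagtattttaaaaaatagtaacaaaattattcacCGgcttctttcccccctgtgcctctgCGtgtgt
Aldh1a2 upstream, chr9:71215539-71215788, plus strand: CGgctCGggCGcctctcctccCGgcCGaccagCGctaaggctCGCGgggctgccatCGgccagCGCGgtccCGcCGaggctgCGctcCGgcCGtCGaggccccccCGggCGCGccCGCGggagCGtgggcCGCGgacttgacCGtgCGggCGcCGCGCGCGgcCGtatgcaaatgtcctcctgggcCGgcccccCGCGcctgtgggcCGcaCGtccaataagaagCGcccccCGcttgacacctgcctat
Cyp26b1 upstream, chr6:84593811-84594060, minus strand: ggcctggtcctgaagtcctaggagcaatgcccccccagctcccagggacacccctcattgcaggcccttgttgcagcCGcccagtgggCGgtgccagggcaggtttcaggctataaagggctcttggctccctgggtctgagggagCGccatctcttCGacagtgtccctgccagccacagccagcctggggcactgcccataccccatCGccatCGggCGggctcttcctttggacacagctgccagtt

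The Aldh1a2 stretch held 40 CG dinucleotides and was 77.6% G or C, and 1.31% of the 32851 promoters in the table had as many. Meis1 had 13 CG dinucleotides, and Meis2 and Cyp26b1 had 7 each, against a median of 6 over all promoters. Neither the Meis core site TGACAG nor the retinoid receptor half-sites AGGTCA and GGTTCA occurred on either strand of the 4 stretches. Over all promoters these letters were found in 15.9%, 14.02% and 8.85%, respectively.

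Positions relative to the genes are coarse, because no mm9 gene models were used. The gene start was placed in a 10 kb bin from general knowledge of mm9, and the promoter side is that bin with 1 bin on each side, 30 kb in all. Values are the kb of a window covered by the authors' peaks, and the 2 libraries of a limb, called its pair, are given in the order library 1 and library 2. With 2 libraries against 2, the smallest two-sided exact permutation p is 0.333, so differences between limbs are described by whether the libraries overlap, beside the share of the genome's tiles of the same size that do the same. The lists themselves differed in length: at E10.5 they held 13589 to 21363 H3K27ac and 10477 to 12901 H3K27me3 peaks, and at E11.5 23209 in forelimb and 32612 in hindlimb. Sequencing depth is unknown. The tissue labels held at their defining genes, since H3K27ac at Tbx5, the forelimb T-box gene, covered 22.8 and 17.1 kb in the forelimb pair and 0 kb in both hindlimb libraries. At Pitx1, the hindlimb homeodomain gene, it covered 0 kb in both forelimb libraries and 13.4 and 14.0 kb in hindlimb. Pax6, a neural gene, had 0 kb of H3K27ac in all 6 H3K27ac lists, and the Actb window had 3.37 to 4.02 kb of it at E10.5 and 0 kb of H3K27me3.

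**Figure D1:**
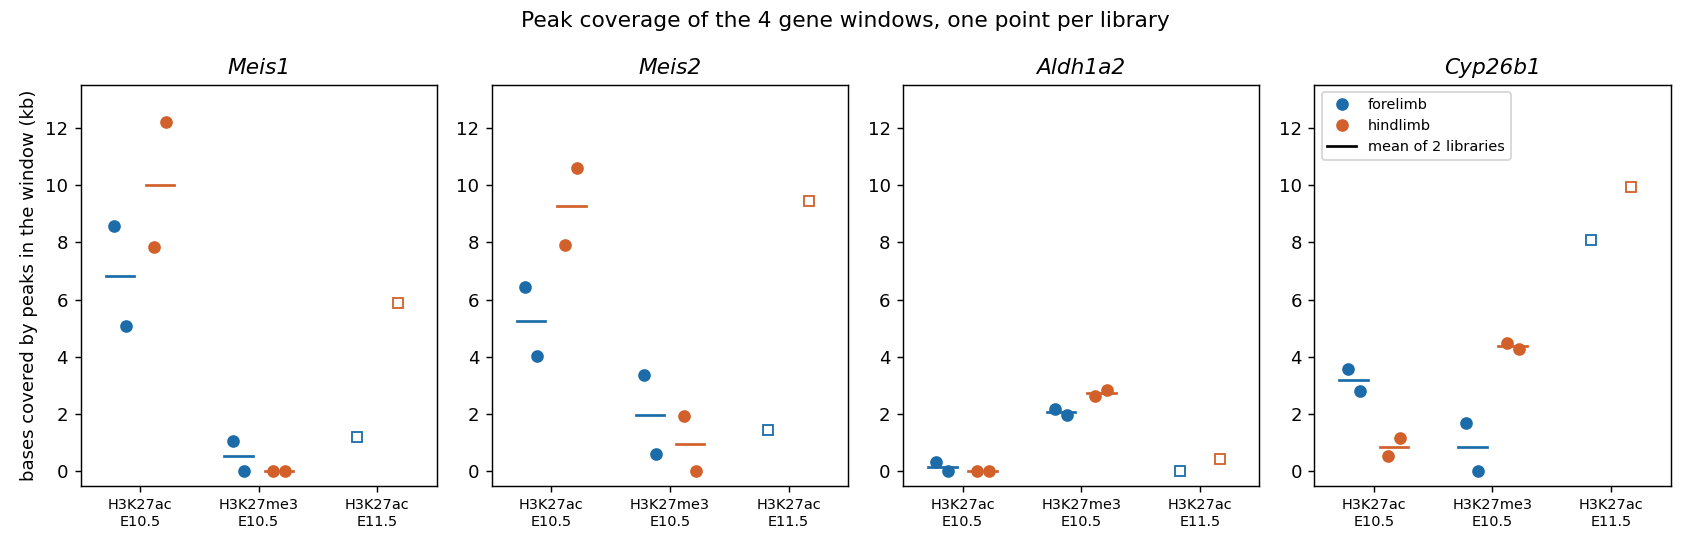
Kilobases covered by peaks in each gene window (y axis), with 1 filled point per E10.5 library, a bar for the mean of 2 libraries and open squares for the single E11.5 libraries (blue forelimb, orange hindlimb). The limbs separate for both marks at Cyp26b1 in opposite directions, and Aldh1a2 carries H3K27me3 in all 4 libraries with almost no H3K27ac.

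Cyp26b1, the enzyme that clears retinoic acid, had more H3K27ac in forelimb and more H3K27me3 in hindlimb at E10.5. H3K27ac covered 3.58 and 2.80 kb of its window in the forelimb pair and 0.531 and 1.19 kb in the hindlimb pair. The lower forelimb value was above the higher hindlimb value, with means of 3.19 ± 0.557 kb and 0.858 ± 0.462 kb (SD, n = 2 each). Among 200 kb tiles with any H3K27ac peak, forelimb was higher without overlap in 9.03%. H3K27me3 covered 1.71 and 0 kb in the forelimb pair and 4.49 and 4.29 kb in the hindlimb pair, again without overlap, with means of 0.855 ± 1.21 kb and 4.39 ± 0.139 kb (SD, n = 2 each). For H3K27me3 the background was large: hindlimb was higher without overlap in 47.0% of the 200 kb tiles with any peak. The forelimb H3K27me3 lists covered 9.93 and 7.56 Mb in all, and the hindlimb lists 13.498 and 12.018 Mb. With covered bases scaled to equal totals, the share was 21.6%, and Cyp26b1 kept the separation with means of 0.925 kb for forelimb and 3.71 kb for hindlimb. The joint arrangement, more H3K27ac in forelimb with more H3K27me3 in hindlimb, was met by 4.72% of the 30 kb tiles that had peaks of both marks, and the opposite arrangement by 0.472%.

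All Cyp26b1 H3K27me3 and nearly all of its E10.5 H3K27ac lay in one stretch, between 84533118 and 84540303 on chromosome 6, apart from a 306 bp peak of hindlimb library 2 far upstream at 84647695 to 84648000. This stretch is in the promoter side but mostly in the bin next to the placed start, toward the gene, so at this resolution it cannot be said whether it covers the start itself or the first part of the gene. An H3K27ac region at 84536857 to 84538276 was found in all 4 libraries, and covered 1086 and 961 bp of forelimb and 531 and 602 bp of hindlimb sequence. The authors gave each E10.5 peak a score, and its percentile is its rank within its own list. The best peaks here stood at percentiles 81.8 and 88.6 of the forelimb lists and 68.1 and 51.0 of the hindlimb lists. A second H3K27ac region, at 84534748 to 84536488, covered 1429 and 1484 bp in the forelimb pair and was not called in hindlimb. Another, at 84533118 to 84533650, was also called in both forelimb libraries alone. The forelimb-only share of H3K27ac regions was 28.6% at Cyp26b1 (2 of 7), beside 2.86% of the 29871 regions of the genome, and both of its regions are pieces of the same stretch.

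Taken over all libraries of both limbs, each of the 4 H3K27me3 regions of Cyp26b1 overlapped an acetylated region. The one at 84534832 to 84535498 lay wholly inside the forelimb-only H3K27ac region at 84534748 to 84536488. Regions at 84534832 to 84535498 and at 84539026 to 84540303 were called in both hindlimb libraries and in no forelimb library. They are 2 of 4 regions, beside 8.52% of the 14776 H3K27me3 regions of the genome. Best peaks of the first stood at percentiles 1.72 and 45.6 of the hindlimb lists, and those of the second at 66.9 and 61.3. The first was thus near the lowest score of the list in hindlimb library 1. The other 2, at 84533428 to 84534772 and 84535974 to 84537733, were called in both hindlimb libraries and in forelimb library 1. All 4 are pieces of the same stretch, and with a 1 kb merge gap the hindlimb-only count over the 4 windows was 1. Forelimb library 2, which had the fewest H3K27me3 peaks of the 4, had none in the window. Among 200 kb tiles with any H3K27me3 peak, 22.4% likewise had forelimb library 1 with and forelimb library 2 without one. In hindlimb, bases marked by H3K27ac in both libraries amounted to 0.505 kb, and 0.328 kb of them (65.0%) were also marked by H3K27me3 in both. Over the genome this share was 1.32% in hindlimb. Counted as regions, the 1 Cyp26b1 region acetylated in both hindlimb libraries touched an H3K27me3 region of both, beside 3.57% of such regions in the genome. In forelimb the same count was 0 of 3 regions at Cyp26b1, beside 1.91% in the genome. It could not be otherwise, since forelimb library 2 had no H3K27me3 peak there. Counting bases with each mark in either library, the marks shared 0.764 kb at Cyp26b1 in forelimb, 17.3% of its H3K27ac bases, beside 2.003% over the genome. In hindlimb they shared 0.832 kb, 68.7% of the H3K27ac bases, beside 3.47%. Since a library pools the cells of the buds, shared bases do not show both marks on the same chromatin.

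**Figure D2:**
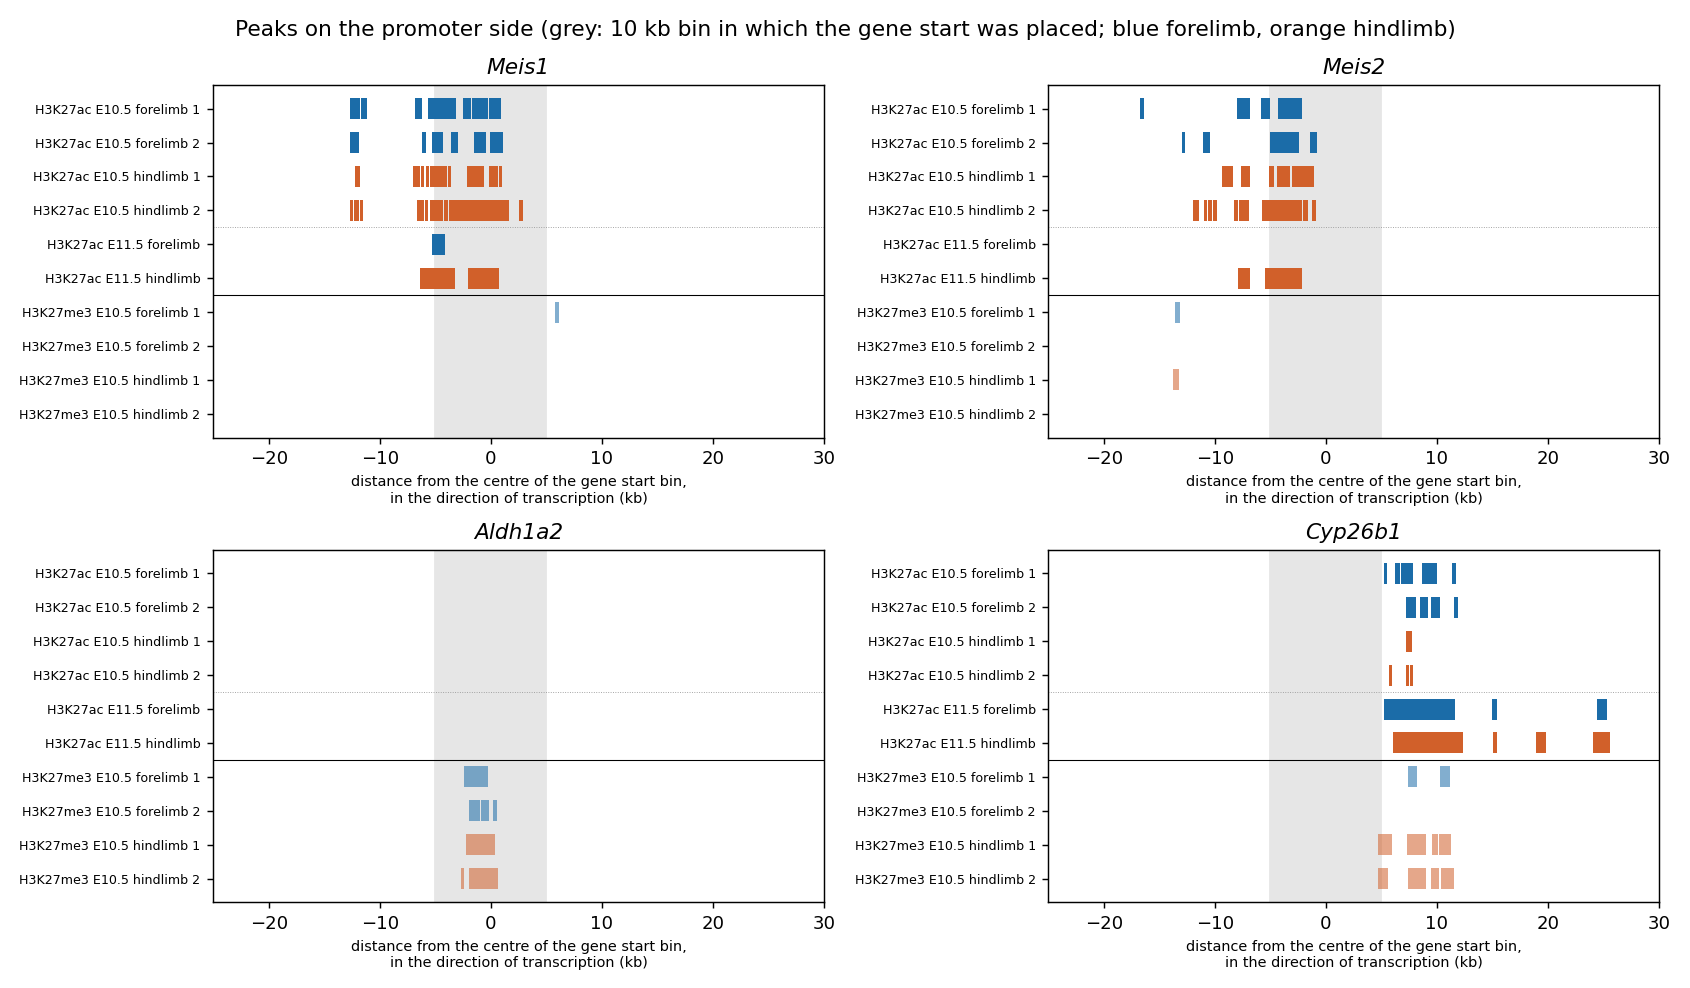
Peaks of each library (rows) on the promoter side of the 4 genes, as distance in kb from the centre of the 10 kb bin holding the gene start, in the direction of transcription (blue forelimb, orange hindlimb, paler for H3K27me3). At Cyp26b1 the hindlimb H3K27me3 peaks and the forelimb H3K27ac peaks occupy the same stretch, at Aldh1a2 there are only H3K27me3 peaks, and at Meis2 the E11.5 forelimb row is empty.

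At E11.5 both limbs were acetylated at Cyp26b1, over 8.08 kb of the window in the forelimb list and 9.94 kb in the hindlimb list. In the stretch marked at E10.5, the forelimb list had 1 interval of 6343 bp, at 84533406 to 84539748, and the hindlimb list 1 of 6330 bp, at 84532615 to 84538944. The hindlimb interval included 3232 and 3419 bp that were covered by H3K27me3 in the 2 hindlimb libraries a day earlier. For the forelimb interval the values were 1709 and 0 bp in the 2 forelimb libraries. The smallest gap between E11.5 intervals was 1001 bp, so they may be joined across gaps, and these bases need not all carry H3K27ac. H3K27me3 at E11.5 was not analysed here. Both E11.5 lists also held intervals further into the gene and near its far end that no E10.5 H3K27ac library had. One was at 84519649 to 84520565 in forelimb and 84519387 to 84520903 in hindlimb, and a short one lay at 84529587 to 84530066 and 84529627 to 84529960. The hindlimb list alone had an interval at 84525148 to 84526077 and 2 upstream, at 84606505 to 84606813 and 84615409 to 84615929. The next gene on that side in the RefSeq table is Exoc6b, which encodes an exocyst subunit, and these intervals were not assigned to either gene. The forelimb list alone had an interval at 84451785 to 84452124. Over the whole lists, 44.6% of E11.5 hindlimb intervals had no forelimb overlap. Among the 23209 E11.5 forelimb intervals, 4410 had no hindlimb overlap. Of the E11.5 intervals in the 4 windows, 3 of 7 in forelimb and 7 of 13 in hindlimb had no E10.5 H3K27ac peak in any library, beside 45.9% and 56.9% of all intervals in these lists, so the share in these windows was near the background.

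Aldh1a2, the enzyme that makes retinoic acid, carried H3K27me3 on its promoter side in both limbs and no H3K27ac there. H3K27me3 covered 2.17 and 1.96 kb in the forelimb pair and 2.63 and 2.83 kb in the hindlimb pair, all of it on the promoter side. It formed 1 region found in all 4 libraries, at 71062623 to 71065676 on chromosome 9, and a 295 bp peak just before it in hindlimb library 2. The best peak there stood at percentiles 95.3 and 78.02 of the forelimb lists and 90.7 and 90.2 of the hindlimb lists. The bases covered on the promoter side, 2.40 ± 0.400 kb (SD, n = 4 libraries of both limbs), were reached or exceeded by 16.7% of the 30 kb tiles with H3K27me3. Of 30 kb tiles with any H3K27me3 peak, 22.2% had it in all 4 libraries with no H3K27ac in any, as the Aldh1a2 promoter side did.

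The hindlimb libraries had more H3K27me3 at Aldh1a2 than the forelimb libraries without overlap, 2.73 ± 0.139 kb against 2.07 ± 0.149 kb (SD, n = 2 each). This is what 47.0% of 200 kb tiles showed. With covered bases scaled to equal list totals the order turned, to means of 2.57 kb for forelimb and 2.31 kb for hindlimb, and the libraries overlapped. No H3K27ac peak lay on the promoter side or in the gene body in any of the 6 H3K27ac lists. The only H3K27ac in the window was a 317 bp peak of forelimb library 1 at E10.5, at 71169805 to 71170121 and percentile 8.38 of its list, and a 447 bp interval of the E11.5 hindlimb list at 71174269 to 71174715. Both lie beyond the far end of the gene as placed, and they do not overlap.

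Meis1, a proximal marker of the bud, was acetylated on its promoter side in every H3K27ac library of both limbs. At E10.5 the H3K27ac of the whole window covered 8.57 and 5.08 kb in the forelimb pair and 7.84 and 12.2 kb in the hindlimb pair, so the limbs overlapped. Their means were 6.83 ± 2.47 kb and 10.02 ± 3.09 kb (SD, n = 2 each). Whether they overlapped depended on the scaling and on single libraries. They did not overlap when scaled to equal totals, with means of 6.87 and 10.05 kb, nor without forelimb library 1 or hindlimb library 1, where forelimb minus hindlimb was -4.94 and -5.38 kb. Without hindlimb library 2 the difference was -1.01 kb. Among 400 kb tiles with any H3K27ac peak, 8.16% had hindlimb higher without overlap in the full, unscaled lists. No such share was computed for scaled lists or with a library left out. Most Meis1 H3K27ac lay on the promoter side, with 7.995 and 5.08 kb in forelimb and 6.16 and 9.26 kb in hindlimb. The mean of the 4 libraries there, 7.12 ± 1.86 kb (SD, n = 4), was reached by 0.0783% of 30 kb tiles with H3K27ac, whose median was 0.396 kb.

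The main acetylated region of Meis1 spanned 8634 bp, at 18913347 to 18921980 on chromosome 11, and was found in all 4 libraries. Its best peak stood at percentiles 99.4 and 92.5 of the forelimb lists and 99.4 and 99.2 of the hindlimb lists. Further upstream, a region at 18926432 to 18927698 was also found in all 4 libraries, with 1226 and 823 bp covered in forelimb and 516 and 1022 bp in hindlimb. No H3K27ac peak was called in the 170 kb of the window upstream of the promoter side in any list. H3K27me3 was called at Meis1 by forelimb library 1 alone, with 3 peaks of 1.06 kb in all, and covered 0 kb in forelimb library 2 and both hindlimb libraries. Among 400 kb tiles with any H3K27me3 peak, 20.1% had one in forelimb library 1 and none in forelimb library 2. Absence of H3K27me3 beside H3K27ac is common, since 82.9% of 30 kb tiles with H3K27ac in all 4 libraries had no H3K27me3 in any.

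The distal sites of Meis1 were weaker and lay near the far end of the gene, about 141 kb from the start as placed. Between 18770416 and 18777519, H3K27ac covered 0.576 and 0 kb in the forelimb pair and 1.39 and 2.62 kb in the hindlimb pair. Regions at 18771083 to 18771602 and 18776193 to 18777092 were called in both hindlimb libraries alone, beside 2.68% of H3K27ac regions of the genome that were hindlimb-only. Between them, a region at 18771696 to 18772271 was called in forelimb library 1 and both hindlimb libraries. Forelimb library 1 also had 2 H3K27me3 peaks in this stretch, at 18771406 to 18771755 and 18775456 to 18775856. The whole gene body as placed, beyond the promoter side, had 0.576 and 0 kb of H3K27ac in forelimb and 1.68 and 2.62 kb in hindlimb, without overlap. All of it but the peak at 18878642 to 18878931 lay in this stretch. At 10 kb resolution it cannot be said whether the stretch is inside the gene or past its end. Hindlimb was higher without overlap in 8.91% of 200 kb tiles with any H3K27ac peak, a size near that of the gene bodies of Meis1 and Meis2. Neither E11.5 list covered any of this stretch. The peaks at 18742906 to 18743230 and 18878642 to 18878931 were each called in 1 hindlimb library.

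Meis2, the paralogue of Meis1, was acetylated on its promoter side in all 4 E10.5 libraries, with more H3K27ac in hindlimb. The window had 6.44 and 4.04 kb in the forelimb pair and 7.91 and 10.6 kb in the hindlimb pair, which did not overlap, with means of 5.24 ± 1.69 kb and 9.26 ± 1.90 kb (SD, n = 2 each). Hindlimb was higher without overlap in 8.32% of 600 kb tiles with any H3K27ac peak. On the promoter side the values were 4.18 and 4.04 kb in forelimb and 5.26 and 7.34 kb in hindlimb, beside 8.66% of 30 kb tiles. The difference over the window was -4.02 kb, forelimb minus hindlimb. It was -2.17 kb with the better-scoring 50% of each list, where the limbs did not overlap. Without hindlimb library 2 it was -2.67 kb, a run in which pairs already apart cannot come to overlap. The 4-library mean on the promoter side, 5.20 ± 1.52 kb (SD, n = 4), was reached by 0.253% of 30 kb tiles with H3K27ac.

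The main Meis2 region, at 115885829 to 115890859 on chromosome 2, was found in all 4 libraries, with 2939 and 3120 bp in forelimb and 3548 and 4467 bp in hindlimb. Its best peak stood at percentiles 92.8 and 98.5 of the forelimb lists and 98.05 and 99.8 of the hindlimb lists. Next to it, a region at 115891810 to 115893274 was called in forelimb library 1 and in both hindlimb libraries. H3K27me3 on the promoter side was a single region of 565 bp, at 115898171 to 115898735, called in forelimb library 1 and hindlimb library 1.

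Over the whole Meis2 window, H3K27me3 covered 3.37 and 0.607 kb in forelimb and 1.93 and 0 kb in hindlimb, so the limbs overlapped. Forelimb minus hindlimb was 1.02 kb, and it turned to -0.357 kb without forelimb library 1. Most of it lay around the far end of the gene, beside H3K27ac. H3K27me3 between 115679541 and 115681223 covered 1600 and 607 bp in the forelimb pair and 1399 and 0 bp in the hindlimb pair, and forelimb library 1 had 1 more peak before it, at 115678264 to 115678959. An H3K27ac region at 115683926 to 115684576 was called in both hindlimb libraries alone, as were 2.68% of H3K27ac regions of the genome. Its best peaks stood at percentiles 0.399 and 63.9 of the hindlimb lists, so the library 1 peak was among the lowest-scoring of its list. The Meis2 gene body beyond the promoter side had 0 kb of H3K27ac in both forelimb libraries and 1.03 and 1.06 kb in hindlimb. The most distant site was a stretch with H3K27ac at 115404791 to 115408118, centred about 479 kb from the Meis2 start as placed. Its largest region, at 115406753 to 115408118, covered 1061 and 0 bp in the forelimb pair and 1022 and 1029 bp in the hindlimb pair. That region was covered in both E11.5 lists. Which gene this site belongs to was not tested. The remaining E10.5 H3K27ac sites of the window were called in 1 or 2 libraries each.

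**Figure D3:**
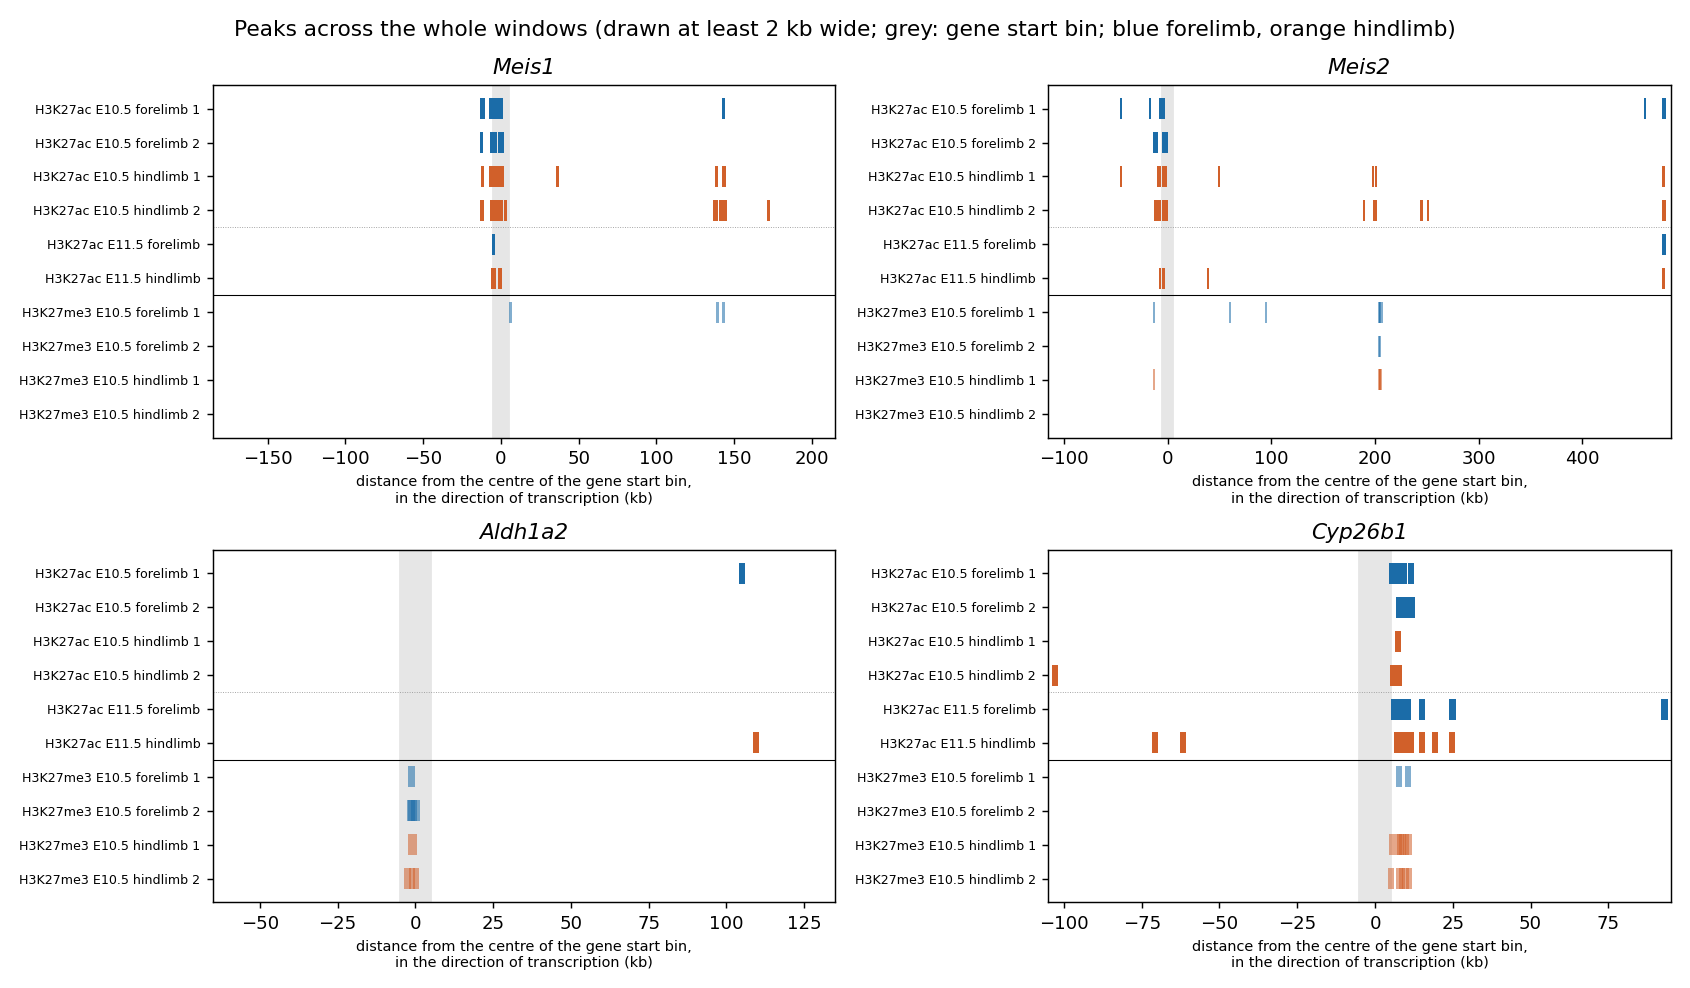
Peaks of each library across the whole windows, as distance in kb from the centre of the gene start bin in the direction of transcription, with short peaks drawn 2 kb wide so that they can be seen (blue forelimb, orange hindlimb, paler for H3K27me3). Distal H3K27ac is seen about 141 kb from the Meis1 start, mostly in hindlimb rows, and about 479 kb from the Meis2 start in 5 of the 6 H3K27ac rows, while Aldh1a2 has almost none.

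At E11.5 the Meis genes had less H3K27ac in the forelimb list than in the hindlimb list. At Meis1 the forelimb list had 1 interval of 1203 bp, at 18919095 to 18920297, and the hindlimb list had 2, of 2753 and 3118 bp, at 18914289 to 18917041 and 18918225 to 18921342. On the Meis2 promoter side the forelimb list had none, and the hindlimb list had 2 intervals, of 3282 and 1088 bp, at 115887165 to 115890446 and 115891865 to 115892952. The hindlimb list also had an interval of 1976 bp at 115844896 to 115846871, inside the gene as placed, which overlapped no E10.5 H3K27ac peak. The E11.5 hindlimb list is the longer one, covering 47.2 Mb against 31.3 Mb, and 82.0% of 30 kb tiles acetylated in all 4 E10.5 libraries had more covered bases in hindlimb at E11.5. Coverage in the hindlimb list with none in forelimb, as on the Meis2 promoter side, was found in 2.65% of these tiles. Each limb has 1 E11.5 library, so this difference has no replicate check.

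Regions acetylated in both E10.5 libraries of a limb were compared with that limb's E11.5 list. In forelimb 4 of 6 such regions in the 4 windows were covered, beside 90.8% of 8280 over the genome. The 2 not covered were the upstream Meis1 region at 18926432 to 18927698 and the main Meis2 region. In hindlimb 5 of 10 were covered, beside 92.6% of 8728. Those not covered were 4 Meis1 regions, among them the same upstream one, and the Meis2 region at 115683926 to 115684576. Apart from the upstream one, the Meis1 regions were pieces of the stretch at 18770416 to 18777519. Their mean percentiles, over the libraries that called them, were 26.7, 36.4 and 64.2. The upstream region stood at 72.3 and the Meis2 region at 32.2, the mean of 0.399 and 63.9 in hindlimb libraries 1 and 2. The genome shares were not matched for score. All 3 forelimb regions and the 1 hindlimb region of Cyp26b1 were covered. Among the 5881 H3K27ac regions of all 4 E10.5 libraries, 2.89% were covered at E11.5 in hindlimb and not in forelimb, as the main Meis2 region was, and 0.425% in forelimb and not in hindlimb.

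Over the 4 windows together, the E10.5 libraries gave 42 H3K27ac regions and 14 H3K27me3 regions. Of the H3K27ac regions, 4 were found in all 4 libraries, 2 in forelimb alone, 3 in hindlimb alone and 28 in a single library. Over the genome the shares were 19.7% in all libraries, 2.86% in forelimb alone, 2.68% in hindlimb alone and 53.4% in a single library. Of the H3K27me3 regions, 1 was found in all 4 libraries, 0 in forelimb alone, 2 in hindlimb alone and 7 in a single library, and the genome shares were 27.7%, 1.09%, 8.52% and 49.5%. These small counts depended on single libraries. Leaving a library out sets 1 list against a pair, and the all-library H3K27ac count was then 8 without forelimb library 2 or hindlimb library 2. The hindlimb-only H3K27ac count became 6 without forelimb library 1, 19 without hindlimb library 1 and 9 without hindlimb library 2, and the forelimb-only count 4 and 9 without forelimb libraries 1 and 2. For H3K27me3 the forelimb-only count became 6 without forelimb library 2 and 2 without hindlimb library 1, the hindlimb-only count 4 without forelimb library 1 or hindlimb library 1, and the all-library count 3 without forelimb library 2 and 2 without hindlimb library 2.

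Other genes of retinoic acid handling were read in 7 further windows placed from general knowledge of mm9. H3K27ac was present in all 4 E10.5 libraries at 6 of the 7. The exception was the window shared by Cyp26a1 and Cyp26c1, the other retinoic acid-degrading enzymes, where H3K27ac was 0 kb in every list of both stages and H3K27me3 covered 15.4 and 14.0 kb in forelimb and 16.101 and 16.058 kb in hindlimb. Cyp26b1, by contrast, had H3K27ac in all 6 H3K27ac lists. Aldh1a3, a second retinaldehyde dehydrogenase, carried both marks, with H3K27ac of 1.73 and 1.56 kb in forelimb and 0.270 and 2.56 kb in hindlimb and H3K27me3 of 4.07 ± 0.202 kb and 4.12 ± 0.529 kb (SD, n = 2 each). Rdh10, which makes the retinaldehyde that Aldh1a2 uses, was acetylated in both limbs at 2.23 ± 1.04 kb and 1.95 ± 0.0658 kb.

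The retinoic acid receptor windows carried H3K27ac and 0 kb of H3K27me3 in all 4 libraries. At Rarg H3K27ac covered 7.25 and 4.05 kb in forelimb and 2.81 and 2.88 kb in hindlimb. This was the only one of the 7 windows in which forelimb was higher without overlap. Among 30 kb tiles with any H3K27ac peak, the size of that window, 9.51% did the same. At Rara H3K27ac covered 9.22 and 3.97 kb in forelimb and 4.44 and 5.14 kb in hindlimb, and the limbs overlapped. Both windows lie among other genes, whose peaks are not separated here. Crabp1, which encodes a cellular retinoic acid binding protein, had H3K27me3 in hindlimb alone, at 1.09 and 0.838 kb against 0 kb in both forelimb libraries, with H3K27ac in both limbs. Hindlimb was higher for H3K27me3 without overlap at 2 of the 7 windows, Crabp1 and Cyp26a1/Cyp26c1. The share was 40.8% among 30 kb tiles with any H3K27me3 peak, the size of the Crabp1 window. Of the 7 windows, 3 had 0 kb of H3K27me3 in all 4 libraries and could not separate the limbs, so 2 of 7 is not a like share. Crabp2, the second such binding protein, had 0 kb of H3K27me3 and overlapping H3K27ac, 6.40 and 3.19 kb in forelimb and 3.46 and 4.65 kb in hindlimb. H3K27ac was listed at E11.5 in 5 of the 7 windows in forelimb and 6 in hindlimb, with none at Crabp1 in the forelimb list.

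**Figure D4:**
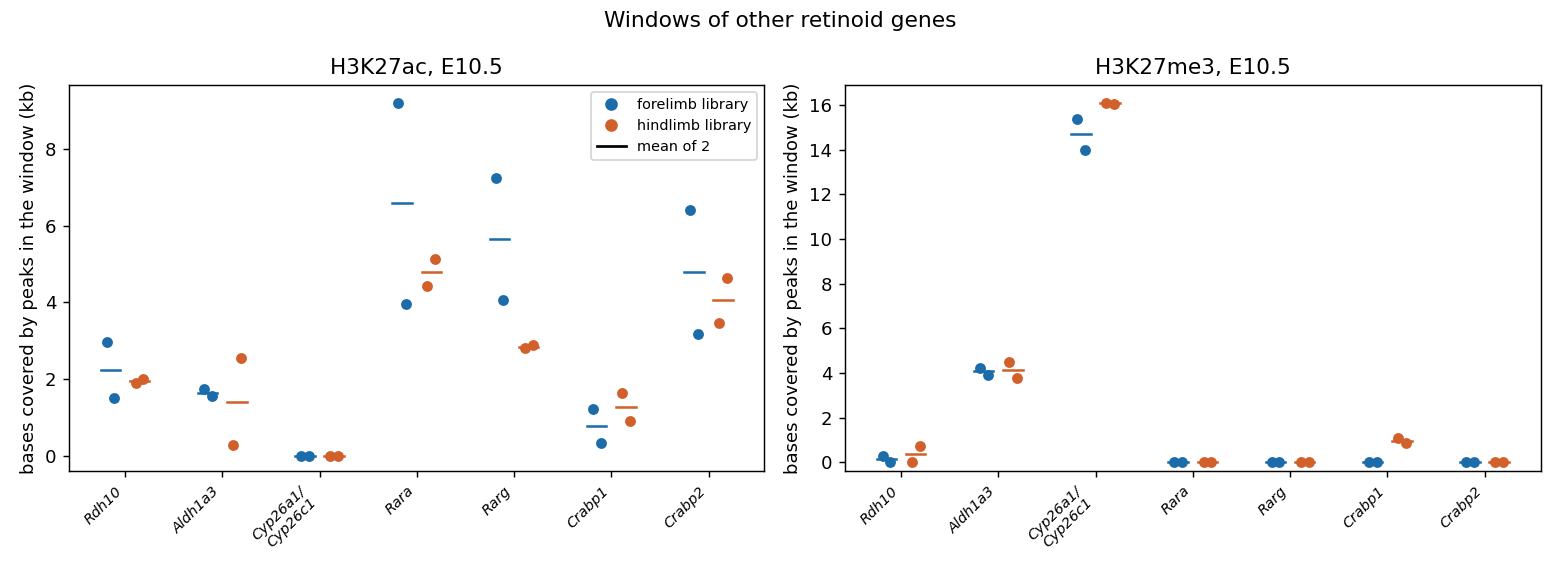
Kilobases covered by H3K27ac (left) and H3K27me3 (right) peaks at E10.5 in the 7 further windows of retinoid genes, with 1 point per library and a bar for the mean of 2. Only the Cyp26a1/Cyp26c1 window has H3K27me3 in all libraries and no H3K27ac, and only Rarg separates the limbs for H3K27ac.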

How the data were processed

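Peak lists of 10 ChIP-seq libraries were used, and the 10 input and 4 mRNA samples of the series were not analysed here. The submitters' processing notes name Bowtie 0.12.3, MACS 1.37 and the build mm9. Per the file headers, each E10.5 list comes from 1 library, with a MACS p-value threshold of 1e-05. Each of its peaks carries a score deposited by the authors, -10 times the base-10 logarithm of its p-value, used here only for percentiles within a list. The E11.5 lists deposited by the authors give interval starts and ends and no score. The smallest gap between neighbours was 1001 bp at E11.5 and 1 or 2 bp for E10.5. Amounts are therefore not compared between the stages. Sources used here do not give the input behind each list.

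Covered bases were summed per window. For each mark, E10.5 peaks of its 4 libraries were merged into regions at gap 0, and detection needed 1 bp. Sums and region calls were tested on simulated data (Python 3.11.15, pandas 2.3.3). Regions named are chosen per window and mark from those on the promoter side, the 3 with most covered bases, the 3 with the best mean score percentile among those in all 4 libraries, and all limb-only ones, with other sites named after their values were seen. One window of the further gene list is not reported here. The windows, genes and lists were chosen with earlier results of these data known. Gene starts were placed from general knowledge, and gene lengths in the GRCm38.p6 table were 139, 206, 80.5 and 22.5 kb for Meis1, Meis2, Aldh1a2 and Cyp26b1, against placed spans of 150, 210, 90 and 30 kb. The labels do not say whether replicates are separate litters, so spread may be technical. Alternatives tried were the better-scoring 50% of peaks, lists of equal length, scaling to equal totals, wider windows and promoter sides, a 1 kb merge gap, 50% coverage, bases in either replicate and leaving out each library.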

Additional observations from a re-analysis of the deposited data

How the results depend on the processing

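No paired analysis was possible because the comparisons come from no test, with 2 libraries per limb whose shared numbers are not said to mark a common litter or day. Of 130 recomputed values, 27 moved and 1 reversed. A limb difference moved if it changed by more than the spread of the libraries. A count moved if it changed by more than 1.5 times, or from or to 0. Bases shared by both marks moved if they changed at all. Of 72 recomputed limb differences, 64 kept their direction. Aldh1a2 and Meis2 H3K27me3 changed sign once each, Meis2 to -0.357 kb without forelimb library 1, and the rest were 0 kb. The opposite limb differences at Cyp26b1 kept their direction, without overlap, with the better-scoring 50% of peaks, lists of equal length and equal totals. They also did so with wider windows and promoter sides. Leaving out a library cannot turn or join pairs that are already apart, so those runs show only the size of the difference. Forelimb minus hindlimb was then 1.94 to 2.73 kb for H3K27ac and -4.39 to -2.68 kb for H3K27me3. With the better-scoring 50% of peaks, the difference was -2.17 kb for Meis2 H3K27ac and -0.876 kb for Aldh1a2 H3K27me3. The latter was -0.515 kb with lists of equal length and turned to 0.258 kb when scaled to equal totals, where the forelimb values are raised because those lists cover fewer bases.

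Region counts over the 4 windows were small and moved most. For H3K27ac, the forelimb-only count was 1 with the better-scoring 50%, with equal lengths and with a 1 kb merge gap, the hindlimb-only count 1 with equal lengths, and the all-library count 1 when 50% of a region had to be covered. For H3K27me3, the hindlimb-only count was 1 with equal lengths and with a 1 kb gap. Without single libraries, the H3K27ac counts were 5 to 8 in all libraries, 2 to 9 in forelimb only and 3 to 19 in hindlimb only, and the H3K27me3 counts 1 to 3, 0 to 6 and 2 to 4. The number of forelimb regions covered at E11.5 was 2 when 50% of the region had to be covered. With bases in either replicate, both marks shared 0.06 kb at Meis1 and 0.764 kb at Cyp26b1 in forelimb, and 0.832 kb at Cyp26b1 in hindlimb. Depth is unknown, so a missing peak means only that none passed the authors' threshold.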
